A study of Homo sapiens with 8 samples.

Results

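The interferon regulatory factors are transcription factors that bind interferon response elements, and 8 of their genes are described here, IRF1, IRF2, IRF3, IRF4, IRF5, IRF7, IRF8, and IRF9. They were chosen by gene family, and IRF7 leads because its signal was already known to differ widely between the cell lines. They make up 8 of the 19483 genes named on the array and have 9 of its 34127 probes, since IRF3 has 2. Because the choice was made with these values in view, the levels of the members are given as a description, without a p.

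When a cell detects viral nucleic acid, IRF3 and IRF7 are phosphorylated, enter the nucleus, and switch on the genes of type I and type III interferons. Secreted interferon then acts through its receptors, IRF9 enters the nucleus as part of the complex ISGF3, and ISGF3 induces the interferon-stimulated genes, IRF7 among them. IRF1 activates and IRF2 mostly represses overlapping targets, IRF5 acts downstream of Toll-like receptors, and IRF4 and IRF8 serve mainly in lymphoid and myeloid cells. The IRF7 promoter is known as one that can be silenced by DNA methylation in cultured cells.

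RNA came from 8 stable transformants of HEK293T, a human embryonic kidney cell line that carries the SV40 large T antigen. Each line is 1 clone, selected with blasticidin after transfection of a pcDNA6/myc-His plasmid, and there were 2 clones for each of 4 constructs. Empty vector (#1 and #2) carried no insert. TET1-CDwt (#2 and #5) expressed the catalytic domain of TET1, an enzyme that oxidizes 5-methylcytosine. MBD-TET1-CDwt (#3 and #10), the active fusion, joined that domain to one that binds methylated CpG. MBD-TET1-CDmut (#9 and #10), the inactive fusion, carried a change that abolishes catalysis. The design asks how expression differs when the active domain is brought to methylated DNA. All 8 lines share the parental cells, the plasmid backbone, and the selection, so a difference between 2 clones of a construct includes what arose when each line was isolated. Every value below is a log2 signal of the Agilent software from which the 75th percentile of its array was subtracted, and a value of 0 is therefore a signal as bright as that percentile.

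Each array had 63.2% to 68.2% of its probes well above background, which is the call of the scanner software that a spot is brighter than its surroundings. Slide 1 held empty vector and TET1-CDwt and slide 2 the fusions, so slide and construct cannot be told apart where a fusion is compared with empty vector or TET1-CDwt. All 7 markers listed for HEK293T were well above background on all 8 arrays. Of 9 leukocyte markers on the array, 4 were well above background on all arrays and CD3E and CD74 on none, with 4 to 6 of the 9 on any array. Of 5 fibroblast markers, 1 was well above background on all arrays and COL1A2, COL3A1, and DCN on none. Of 4 endothelial markers, 1 was so on all arrays and PECAM1 and KDR on none. The 2 TET1 probes lay at 2.61 to 2.94 and -1.55 to -0.70 over the 8 arrays, and the 2 MBD2 probes at 1.25 to 1.65 and -5.21 to -2.57. On the dimmer TET1 probe both MBD-TET1-CDmut clones were the highest and both MBD-TET1-CDwt clones the lowest, within that range. Because the position of these probes in the transcripts is not given, they check nothing about the transgenes.

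Promoter sequences were found for 5 of the member genes, IRF1, IRF4, IRF5, IRF8, and IRF9, with 9 start sites between them. A promoter here runs from 250 bases before to 50 bases after a RefSeq start site on GRCh38.p14. Because TET1 and the methyl-CpG-binding domain both act on CpG dinucleotides, the 250 bases before the start of 3 members are shown with each CpG in capitals. IRF1 stands for the CpG-rich windows, IRF8 for the CpG-poor ones, and IRF9 for a CpG-poor window with a STAT motif. The window of IRF1 is chr5:132490774-132491023 on the minus strand, that of the first start of IRF8 is chr16:85902580-85902829 on the plus strand, and that of IRF9 is chr14:24161015-24161264 on the plus strand.
IRF1: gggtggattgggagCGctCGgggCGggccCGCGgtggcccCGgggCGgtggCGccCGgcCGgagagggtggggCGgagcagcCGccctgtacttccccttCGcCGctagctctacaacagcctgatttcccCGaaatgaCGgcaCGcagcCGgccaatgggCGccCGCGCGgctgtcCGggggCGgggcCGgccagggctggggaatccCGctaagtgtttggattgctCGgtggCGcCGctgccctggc
IRF8: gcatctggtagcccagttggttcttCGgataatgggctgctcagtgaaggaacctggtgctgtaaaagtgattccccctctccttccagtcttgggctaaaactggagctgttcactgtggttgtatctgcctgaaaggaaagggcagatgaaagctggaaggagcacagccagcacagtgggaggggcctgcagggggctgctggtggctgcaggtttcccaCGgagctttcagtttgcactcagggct
IRF9: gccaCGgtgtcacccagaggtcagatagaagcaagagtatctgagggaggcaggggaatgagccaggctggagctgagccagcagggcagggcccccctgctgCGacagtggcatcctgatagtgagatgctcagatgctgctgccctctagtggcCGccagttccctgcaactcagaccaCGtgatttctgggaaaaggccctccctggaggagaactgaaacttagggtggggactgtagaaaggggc
The whole promoter of IRF1 held 36 CpGs, and 87.3% of the 35116 promoters in the table held fewer. IRF4 held 32 (81.1% held fewer), and the 4 starts of IRF5 held 25, 34, 8, and 5. The windows of IRF8 held 3 at the first start listed and 9 at the second, and IRF9 held 7, against a median of 14 over all promoters. Whether these are the start sites of the transcripts that the probes read was not tested. The counts therefore describe the windows alone, and other starts of IRF8 may differ. Sequence windows for IRF2, IRF3, and IRF7 were not used here.

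In the same promoters the core of the interferon-stimulated response element, GAAANNGAA, the composite element of ETS factors and IRFs, GGAANNGAA, and the STAT element GAS, TTCNNNGAA, were searched on both strands. The first and second of these can overlap each other. IRF1 had a GAS match, TTCCCCGAA, that begins 124 bases before the start, and IRF9 had another, TTCTGGGAA, that begins 63 bases before it. IRF5 had the composite element as TTCGTTTCC 32 bases before the third start and the response element core as TTCTGTTTC 4 bases before the fourth. Of all promoters 8.11% held the response element core, 7.79% the composite element, and 7.66% GAS. IRF4 and IRF8 held none of these letters in any window.

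IRF7 (probe A_24_P378019, RefSeq NM_004031) was well above background on all 8 arrays and spanned 6.61 on the log2 scale between its lowest and highest array, which is 97.9-fold. In empty vector it lay at -4.28 in #1 and -3.63 in #2. In TET1-CDwt it lay at -0.90 in #2 and -4.72 in #5. These 2 clones of 1 construct therefore lay far apart, with #5 below both empty vector clones and #2 above them. In MBD-TET1-CDwt the signal was -0.75 in #3 and 1.89 in #10, the highest of all. In MBD-TET1-CDmut it was -1.19 in #9 and -1.54 in #10. So 5 arrays lay between -1.54 and 1.89 and 3 arrays, both empty vector clones and TET1-CDwt #5, lay between -4.72 and -3.63. Before scaling, the processed intensity was 18.2, 36.2, and 17.4 on those 3 arrays and between 134 and 1217 on the others.

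**Figure D1:**
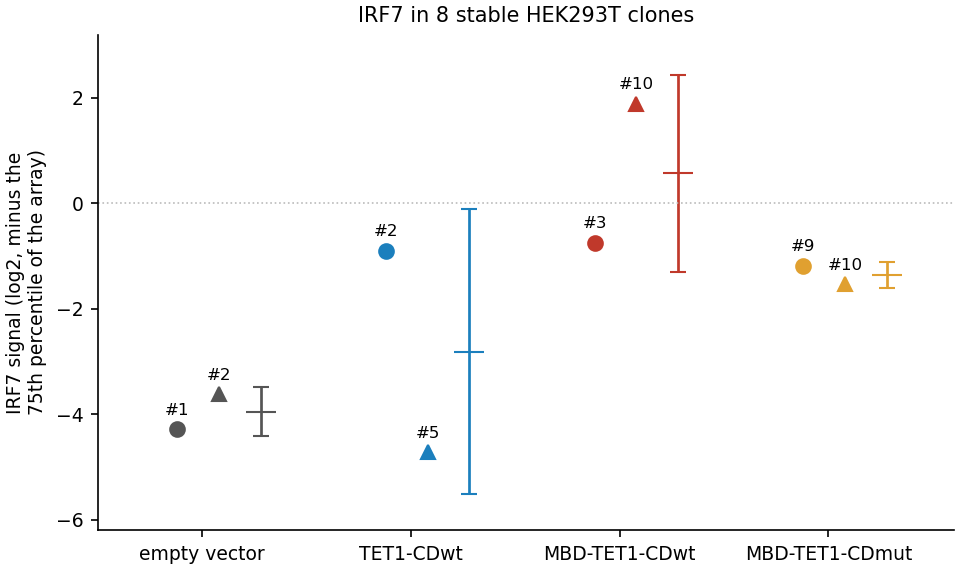
IRF7 signal on each of the 8 arrays (log2, with the 75th percentile of the array subtracted), with the clone number beside each point and the mean and SD of the 2 clones to its right. Both empty vector clones and TET1-CDwt #5 lie between -4.72 and -3.63, and the other 5 clones lie between -1.54 and 1.89.

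The group means were 0.57 ± 1.87 for MBD-TET1-CDwt, -1.36 ± 0.25 for MBD-TET1-CDmut, -2.81 ± 2.70 for TET1-CDwt, and -3.95 ± 0.46 for empty vector (SD, n = 2 clones each). MBD-TET1-CDwt and MBD-TET1-CDmut differed by more than the pooled SD of their clones, which was 1.33, but MBD-TET1-CDmut and TET1-CDwt did not, and neither did TET1-CDwt and empty vector. IRF7 was 23.1-fold higher in the active fusion than in empty vector (log2 difference 4.53), with 2.88 between the nearest clones. The inactive fusion was 6.02-fold higher than empty vector (2.59), with 2.09 between the nearest clones. TET1-CDwt was 2.21-fold higher (1.14), and its clones overlapped those of empty vector. Within slide 2 the active fusion exceeded the inactive one 3.83-fold (1.94), with 0.44 between the nearest clones. Without MBD-TET1-CDwt #10 this last difference was 0.62, without #3 it was 3.26, and the difference between TET1-CDwt and empty vector was -0.77 without TET1-CDwt #2 and 3.05 without #5. With another background correction, normexp, the folds over empty vector were 7.04 for MBD-TET1-CDwt, 1.54 for TET1-CDwt, and 2.39 for MBD-TET1-CDmut. This correction adds an offset of 50, more than the processed intensity of IRF7 in both empty vector clones and TET1-CDwt #5. Such an offset narrows the folds of a dim signal, and its part in these folds was not tested.

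Taken clone by clone against the mean of empty vector, IRF7 was 9.24-fold higher in MBD-TET1-CDwt #3 and 57.6-fold in #10. It was 6.80-fold higher in MBD-TET1-CDmut #9 and 5.34-fold in #10. TET1-CDwt #2 was 8.29-fold higher, close to MBD-TET1-CDwt #3, while TET1-CDwt #5 was at 0.588 of the empty vector mean. RNA was taken from whole cultures, so more cells with IRF7 RNA and more IRF7 RNA per cell cannot be told apart.

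The 2 clones of empty vector differed by 0.66 and those of the inactive fusion by 0.35, and the other clones lay far wider apart. In TET1-CDwt the difference was 3.82 (14.1-fold), a width that 20 of the 22530 probes tested, or 0.0888%, reached or passed, IRF7 among them. In the active fusion it was 2.64 (6.23-fold), and 170 probes (0.755%) were as wide. The median over all probes was 0.26 for the former and 0.37 for the latter.

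IRF7 was 1 of 65 genes at least 5-fold above empty vector in the active fusion and 1 of 8 in the inactive one. Over all probes tested these thresholds were passed by 0.297% and 0.0355%. In TET1-CDwt (0.0133%) and between the 2 fusions (0.226%) no member passed 5-fold, and at 2-fold IRF7 passed in all 4 comparisons, in which 1.23%, 0.351%, 0.36%, and 1.29% of probes did, in the order of the active fusion, TET1-CDwt, and the inactive fusion against empty vector and then 1 fusion against the other. Ranked from the highest difference, IRF7 held place 23 for the active fusion, 84 for TET1-CDwt, and 7 for the inactive fusion, each against the same empty vector clones, and at 121 between the fusions. No other member was 2-fold higher in any of these comparisons.

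IRF3, the constitutive partner of IRF7 in inducing interferon, was measured by 2 probes on all arrays. On A_23_P27677 (NM_001571) it was -0.09 and 0.08 in empty vector, -0.34 and -0.23 in TET1-CDwt, 0.00 and -0.16 in MBD-TET1-CDwt, and -0.17 and -0.24 in MBD-TET1-CDmut. Its 8 values spanned 1.34-fold, the narrowest span among the members measured on all arrays. The second probe (A_33_P3327333, NM_001197123) lay between -0.41 and -0.16, and like the first it was highest on an empty vector array.

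IRF5 (A_23_P500271, NM_001098627), which acts with MyD88 below Toll-like receptors, gave -3.62 and -4.07 in empty vector and -4.08 and -4.44 in TET1-CDwt. It gave -3.34 and -3.52 in MBD-TET1-CDwt and -3.63 and -3.96 in MBD-TET1-CDmut. Both MBD-TET1-CDwt clones were above the other 6 arrays and both TET1-CDwt clones below them, but all 8 values lay within 2.14-fold.

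IRF1 (A_23_P41765, NM_002198), an activator that interferon-γ induces, lay between -4.40 in empty vector #2 and -3.89 in TET1-CDwt #5. Both empty vector clones were the lowest of the 8, and the span was 1.43-fold. The difference of 0.27 between TET1-CDwt and empty vector was -0.06 after normexp background correction. Its antagonist IRF2 (A_23_P125082, NM_002199) did not rise well above background on any array, so no level is compared. IRF9 (A_23_P65442, NM_006084), the DNA-binding subunit of ISGF3, lay between -3.39 and -2.79, and both of these ends were clones on slide 1. Its groups overlapped in every comparison.

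Of the members that serve in blood cells, IRF8 (A_33_P3343120, NM_002163) was well above background on all arrays. It lay at -1.66 and -1.50 in empty vector, -1.40 and -1.39 in TET1-CDwt, -1.49 and -2.27 in MBD-TET1-CDwt, and -0.71 and -1.32 in MBD-TET1-CDmut. Its highest array was thus MBD-TET1-CDmut #9 and its lowest MBD-TET1-CDwt #10, the clone with the most IRF7, and the span was 2.94-fold. Between the fusions it was lower in the active one by 0.86 on the log2 scale. IRF4 (A_23_P214360, NM_002460) was well above background in empty vector #2 alone, at -3.42, and its signal on the other arrays lay between -7.94 and -6.34. Of the 9 leukocyte markers, 6 were well above background on empty vector #1 and 6 on empty vector #2, with CD3E and CD74 on no array.

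**Figure D2:**
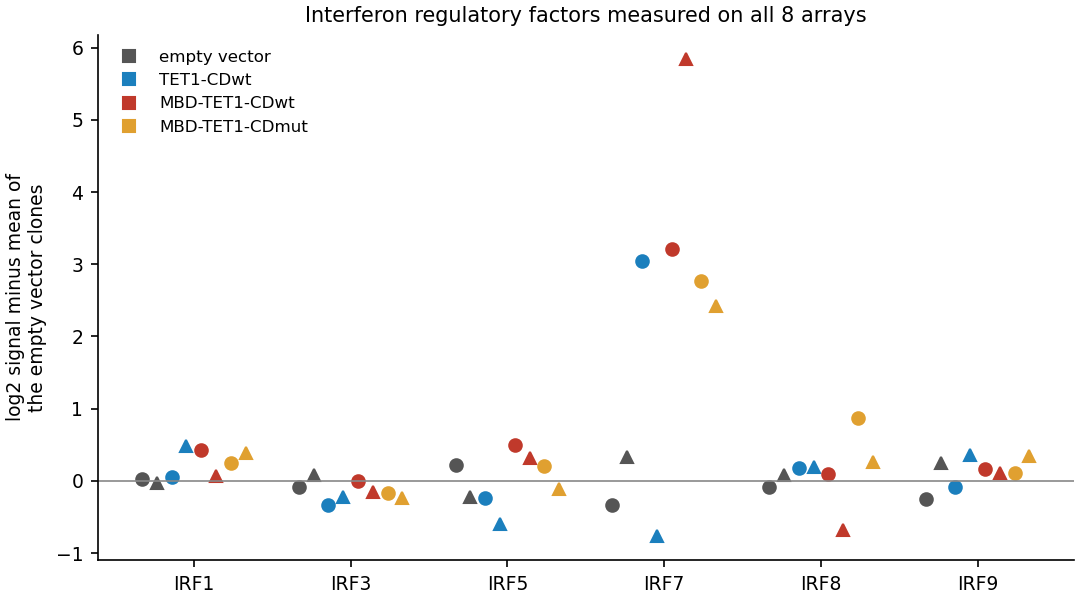
Signal of the 6 members well above background on all 8 arrays, as the log2 difference of each clone from the mean of the empty vector clones, with the first clone of a construct as a circle and the second as a triangle. IRF7 reaches 5.85 in MBD-TET1-CDwt #10, and every other member stays within 1 of the empty vector mean.

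Of these 6 members, 3 did not overlap between the active fusion and empty vector, where 30.8% of all probes tested did not. Against empty vector 4 did not overlap for TET1-CDwt (27.7%) and 4 for the inactive fusion (34.7%), and 4 did not between the fusions (36%). With 2 clones a group, not overlapping was thus common among all probes, and the counts of members are given for description alone.

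The rest of the interferon system was read from 8 lists with 149 genes, of which 144 were on the array and 89 were tested by 109 probes. The limma test called 0 of these 89 genes in any comparison at an adjusted p under 0.05, where it called 0.115% of all probes for the active fusion, 0% for TET1-CDwt, 0% for the inactive fusion, and 0.102% between the fusions. At an unadjusted p under 0.05 it counted 8, 7, 2, and 8 list probes in the same order. These are 7.34%, 6.42%, 1.83%, and 7.34% of the list probes, beside 6.60%, 2.50%, 2.68%, and 6.84% of all probes. By size alone, with dim signals as measured, 6.42%, 2.75%, 5.50%, and 7.34% of the list probes differed at least 2-fold in either direction, beside 3.21%, 1.41%, 1.42%, and 3.40% of all probes. The median log2 difference of the list probes from empty vector came to 0.03 for the active fusion, 0.03 for TET1-CDwt, and 0.02 for the inactive fusion, beside -0.02, -0.03, and -0.02 for all probes.

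The interferons themselves, of which the type I and type III genes are targets of IRF3 and IRF7, were mostly too dim to measure. Of 17 genes on the array 13 were not well above background on any array, IFNB1, IFNG, and IFNW1 among them, and IFNA4 and IFNL2 alone were so on all 8. In MBD-TET1-CDwt IFNL2 differed from empty vector by 0.14 and IFNA4 by 0.01, and limma called neither (adjusted p = 0.933 and 0.997). IFNA genes are near-identical copies, so the IFNA4 probe may also read others.

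Interferon receptors and the JAK-STAT genes, which carry the signal from interferon to ISGF3, were measured on all arrays for 12 of 12 genes. The probes with the largest differences in MBD-TET1-CDwt belonged to IFNAR2, a subunit of the type I receptor, JAK2, at 0.68, and TYK2, the kinase bound to the other subunit, at -0.58. That IFNAR2 probe was well above background on 5 arrays alone and was 1.35-fold higher with dim signals raised to the floor of their array, and the IFNAR2 probes measured on all arrays differed by 0.38 and 0.18. No gene was called (limma adjusted p = 0.794, 0.837, and 0.804).

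The list of nucleic acid sensors also held TLR2 and TLR4, which do not sense nucleic acid. Of its 13 genes, 10 were not well above background on any array. These included TLR2, TLR3, TLR4, TLR7, TLR8, and TLR9, the RNA sensor IFIH1, and the DNA sensor AIM2. RIGI, a cytosolic RNA sensor, and DHX58, its relative, were tested. In MBD-TET1-CDwt DHX58 differed by 0.27, and the probes of RIGI by 0.15 and 0.07, of which limma called none (lowest adjusted p = 0.873). Of the 14 adaptors and kinases that lead to IRF3 and IRF7, 12 were measured on all arrays, and IKBKE, the kinase that with TBK1 phosphorylates both factors, was on none. MAVS, the mitochondrial adaptor of RIGI, had 1 probe at -0.43 with others at 0.24 and -0.03, and IRAK1 and STING1 both had -0.38 on their most different probe (limma adjusted p = 0.773, 0.811, and 0.940).

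Negative regulators held the largest differences between MBD-TET1-CDwt and empty vector outside the interferon-stimulated genes. SOCS3 and SOCS1, which block JAK kinases, were 1.40 (SE 0.39) and 1.09 (SE 0.46) higher in the active fusion than in the vector clones, and neither passed (limma adjusted p = 0.565 and 0.756). SOCS3 lay at -4.76 and -5.09 in empty vector, -3.97 and -3.08 in MBD-TET1-CDwt, and -4.63 and -4.94 in MBD-TET1-CDmut. In TET1-CDwt it gave -4.61 in #2 and -3.75 in #5, so the TET1-CDwt clone with the lower IRF7 had the higher SOCS3. SOCS1 showed that order too, with -4.70 in #2 and -3.63 in #5. In MBD-TET1-CDwt the order for SOCS3 was the other way, since #10, with the most IRF7, had the higher SOCS3. Over all arrays Pearson's r between SOCS3 and IRF7 was 0.48. TNFAIP3, a ubiquitin-editing enzyme that dampens NF-κB, was 0.77 higher in MBD-TET1-CDwt (limma adjusted p = 0.863).

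Of 46 interferon-stimulated genes on the array, 18 were well above background on all arrays and 16 on none. MX1, OAS1, RSAD2, IFI44L, and CXCL10, commonly read as markers of interferon exposure, were among the 16. The number well above background was 25 and 26 in empty vector, 24 and 25 in TET1-CDwt, 22 and 21 in MBD-TET1-CDwt, and 23 and 21 in MBD-TET1-CDmut. MBD-TET1-CDwt #10, the clone with the most IRF7, thus had the fewest together with MBD-TET1-CDmut #10. Over all probes the share well above background was also lower on slide 2, at 63.2% to 64.6%, than on slide 1, at 65.8% to 68.2%, and its part in these counts was not tested. Over the 28 probes tested, the median difference of each clone from the empty vector mean lay between -0.13 in TET1-CDwt #5 and 0.09 in MBD-TET1-CDwt #10.

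Single interferon-stimulated genes differed between clones in several directions. IFITM1, a membrane protein that restricts virus entry, lay at 0.36 and -1.36 in empty vector, 0.97 and -0.14 in TET1-CDwt, -0.35 and 2.41 in MBD-TET1-CDwt, and 0.28 and 0.75 in MBD-TET1-CDmut. It was thus highest in the clone with the most IRF7 and higher in TET1-CDwt #2 than in #5, but MBD-TET1-CDwt #3 lay between the empty vector clones. Its mean difference of 1.53 (SE 0.95) between MBD-TET1-CDwt and empty vector did not pass (limma adjusted p = 0.864). IFIT2, an RNA-binding antiviral protein, was well above background on the empty vector arrays alone, at -4.91 and -4.68, and on none of the other 6. It was at least 1.68-fold lower in MBD-TET1-CDwt, a bound set by the dimmest signals well above background, and limma did not call it (adjusted p = 0.633). TRIM5, a restriction factor for retroviral capsids, was at -2.72 and -2.16 in empty vector and at -4.39 and -3.14 in MBD-TET1-CDwt (limma adjusted p = 0.674). ISG20, an exonuclease named after its values were seen, had the lowest adjusted p of the lists in MBD-TET1-CDwt, 0.543 by limma, with a difference of -0.93.

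**Figure D3:**
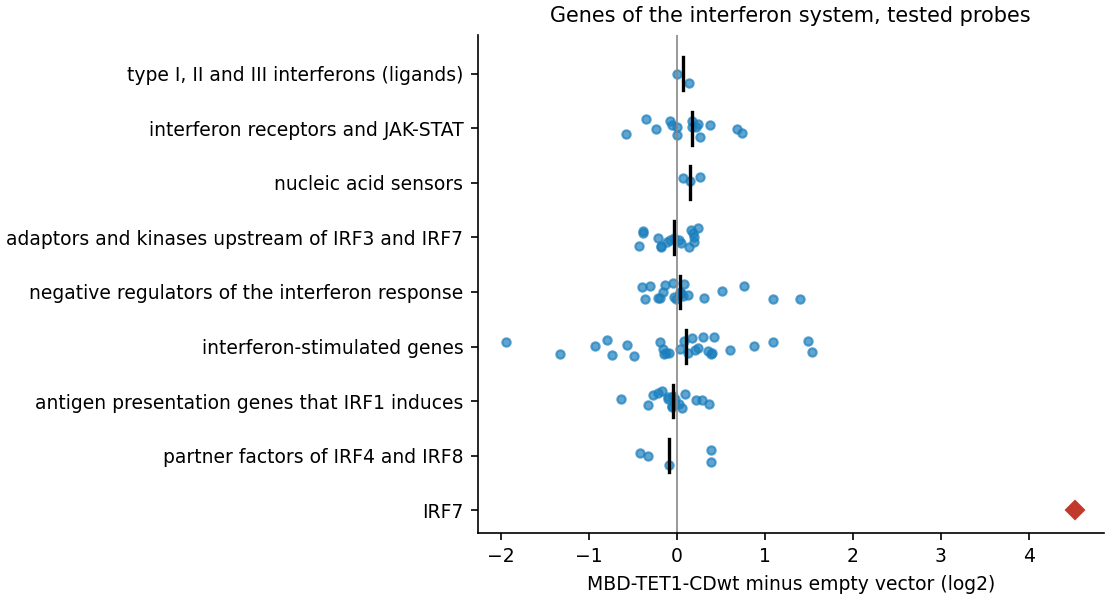
Log2 difference between MBD-TET1-CDwt and empty vector (horizontal axis) for each tested probe of 8 lists of interferon system genes, with the median of each list as a bar and IRF7 as a diamond. IRF7 lies at 4.53, and the list probes lie between -1.93 and 1.53, of which the lowest is IFIT2, not well above background in MBD-TET1-CDwt.

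Antigen presentation genes, which IRF1 induces after interferon-γ, were measured on all arrays for 11 of 13 genes with a median difference of -0.04 in MBD-TET1-CDwt. TAP2, a subunit of the peptide transporter, had -0.64 on 1 probe and 0.07 on the other, PSMB10, an immunoproteasome subunit, had 0.37, and TAPBP, the transporter's binding protein, had -0.32 on its most different probe (limma adjusted p = 0.847, 0.865, and 0.820 for the larger differences). Among the partners of IRF4 and IRF8, SPI1, which encodes the myeloid factor PU.1, lay at -0.42, TCF3 at 0.39, and BATF3 at 0.39 (limma adjusted p = 0.789, 0.798, and 0.879). For PRDM1, BATF, IKZF3, and NFATC2 no array gave a signal well above background.

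The genes beside IRF7 on the chromosome were read to see whether their values moved with it. Of the 10 nearest genes with a probe, 5 on either side, 9 were tested and limma called 0 in any comparison, with 1 of 10 probes at an unadjusted p under 0.05 in MBD-TET1-CDwt. PHRF1, the next gene on one side, differed by 0.23 between MBD-TET1-CDwt and empty vector (limma adjusted p = 0.921), and CDHR5, the next on the other, was not well above background on any array. HRAS, LMNTD2, RASSF7, LOC143666, SCT, DEAF1, and TMEM80 lay between -0.59 and 0.46 in that comparison. DRD4, which encodes a dopamine receptor and is the third gene on the CDHR5 side, was 2.03 higher (limma adjusted p = 0.753). By array DRD4 lay at -1.80 and -0.41 in empty vector, -1.20 and -0.83 in TET1-CDwt, -0.34 and 2.20 in MBD-TET1-CDwt, and -1.16 and -1.13 in MBD-TET1-CDmut. It was therefore high in MBD-TET1-CDwt #10, where IRF7 was highest, but its difference between MBD-TET1-CDmut and empty vector was -0.05 where that of IRF7 was 2.59.

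Genes whose values followed those of IRF7 over the 8 arrays were ranked by Pearson's r among 1354 probes that spanned at least 2 on the log2 scale. The 5 nearest were SLC10A4 (r = 0.95), BNC1 (r = 0.94), TACC2 (r = 0.92), CATSPERZ (r = 0.91), and NES (r = 0.91). These arrays share their slides and their parental line, and without TET1-CDwt #5 and MBD-TET1-CDwt #10, the arrays farthest from the median of IRF7, r was 0.89, 0.92, 0.91, 0.73, and 0.89 for these genes. BNC1, which encodes the zinc finger protein basonuclin, was well above background on the same 5 arrays on which IRF7 was high, at -4.69 in TET1-CDwt #2, -4.28 and -3.46 in MBD-TET1-CDwt, and -4.35 and -4.45 in MBD-TET1-CDmut. It was not well above background in empty vector or in TET1-CDwt #5. SLC10A4, a transporter-like membrane protein, lay at -1.85 and -1.53 in empty vector, -1.30 and -1.92 in TET1-CDwt, -0.80 and 0.30 in MBD-TET1-CDwt, and -0.99 and -0.99 in MBD-TET1-CDmut. It had the same order as IRF7 between the 2 clones of TET1-CDwt, over a smaller range. All 5 genes were picked for their likeness to IRF7 on these arrays, so the choice itself favours such shared orders. NES, which encodes the intermediate filament nestin, gave -0.50 in TET1-CDwt #2 and -1.10 in #5. By Spearman's rho the 5 nearest genes shared SLC10A4 alone with this list, in the last place, where BNC1 tied with it (rho = 0.90 for both). The interferon system gene most like IRF7 was IFITM1, with r = 0.72 at place 122 among 994 named probes on 1 probe and 0.71 on the other, and the latter was 0.40 without MBD-TET1-CDwt #10.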

How the data were processed

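Expression was measured in 8 HEK293T clones on single-color Agilent Human Gene Expression 4x44K v2 arrays. The authors deposited spot intensities after the background subtraction and detrending of Agilent Feature Extraction, unscaled between arrays. The labels name version 9.5.1 and the file headers 10.7.3.1. Control spots and outlier spots (213 to 269 on an array) were dropped, log2 intensities were averaged over the spots of a probe, and the 75th percentile of the array's probes was subtracted. A probe was well above background where over 50% of its spots were. Symbols come from the RefSeq gene table (GRCh38.p14, names and gene order only), which named 74.5% of probes.

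limma 3.58.1 (R 4.3.3) was fitted with 4 group means and 4 residual degrees of freedom to the 22530 probes that both arrays of some group measured well above background, with adjustment after Benjamini and Hochberg. Dim signals in folds were raised to the lowest signal well above background on the array. For a member with several probes the brightest stands for it. List genes were named by their most different probe and counted as called if any of their probes was. In a simulation of 22530 probes for the active fusion (MBD-TET1-CDwt) against empty vector the fit recovered 184 of 200 changed probes with 12 false calls. How many list genes or neighbours of IRF7 the fit could recover at their own differences was not tested. The recovery above therefore does not tell how many of these genes the fit missed. Python 3.11.15, numpy 2.4.6, pandas 2.3.3, and matplotlib 3.10.9 were also used.

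The members and lists were chosen with earlier results of these data known. List genes were named where limma called them and for the 3 largest differences in MBD-TET1-CDwt, the neighbours were the 5 genes on either side, and the genes most like IRF7 were the 5 with the highest r. For the normexp alternative, with offset 50, the files hold a median in place of a mean spot signal. Up to 13 spots per array whose background exceeded their signal were left out, since with them the background estimate of empty vector #2 was -1320. Quantile scaling, median scaling, other filters, priors, and arrays in the fit, no floor, other probes, and leaving out each clone were tried as well. The clones of a construct are separate cell lines, and their number limits the precision. Promoter sequences are those of RefSeq.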

Additional observations from a re-analysis of the deposited data

How the results depend on the processing

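IRF7 kept its direction in every comparison under quantile scaling and median scaling. Leaving out the floor could not change its values, because it was well above background on every array. Normexp adds an offset of 50 to every signal. With it the difference of IRF7 from empty vector was 2.82 for the active fusion (MBD-TET1-CDwt) and 1.26 for the inactive one (MBD-TET1-CDmut). Leaving out each clone in turn gave 3.21 to 5.85 and 2.26 to 2.92. TET1-CDwt depended on a single clone, with -0.77 without TET1-CDwt #2 and 3.05 without #5. Against the main counts of 26 probes called in MBD-TET1-CDwt and 23 between the fusions, normexp gave 2 and 2, no filter on dim probes 10 and 11, probes well above background on all arrays 0 and 0, a trended robust prior 16 and 10, the 4 arrays alone 2 and 0, and leaving out a clone 8 to 97 and 3 to 143. In TET1-CDwt leaving out a clone gave 0 to 2 against 0, and in MBD-TET1-CDmut 0 to 1 against 0, with 1 on the 4 arrays alone. Genes at least 5-fold higher were 14 with normexp in MBD-TET1-CDwt (main 65), 0 in TET1-CDwt (main 3), 0 in MBD-TET1-CDmut (main 8), and 11 between the fusions (main 49). Without the floor they were 9 in TET1-CDwt and 85 between the fusions. Leaving out a clone gave 43 to 167, 5 to 31, 5 to 23, and 36 to 134. Spearman's rho kept 1 of the 5 genes most like IRF7, SLC10A4, with which BNC1 tied. Calls of 0 among list genes and neighbours held under every setting run. Why the counts move was not tested. No paired analysis was possible because the clone numbers only name clones and the groups compared share fewer than 2 numbers.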
